A study of Homo sapiens with 28 samples.

Results

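SK-N-AS, an established line of human neuroblastoma cells, has no amplification of the MYCN gene. A derivative of it, called the MYCN line here, carries a MYCN transgene that doxycycline switches on, and RNA was taken at time labels 0, 4, 8, 24, 48, 96 and 192 after the drug was added, with 3 arrays at each. The last of these times, 192, is described here against time 0 across all genes, which uses 6 of the 28 Affymetrix arrays in the study. Beside them stand the arrays of times 0 and 192 of a mock line, SK-N-AS with the vector pcDNA6TR for the tet repressor, which was also harvested after doxycycline and has 1 array at each of the 7 times. The unit of time is not stated, the culture medium was DMEM with fetal calf serum, and whether each line is 1 clone is not given. Arrays 1 to 3 of a time are replicates by their numbers only, so a p-value speaks to the spread between these arrays alone, and that spread may be technical. Within the MYCN line, MYCN, doxycycline and time in culture cannot be told apart, and in these bulk samples fewer cells of a type and less RNA per cell cannot be told apart either.

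MYCN is a transcription factor of the MYC family. It pairs with MAX and binds E-box motifs, of which CACGTG is the best known, in the promoters of genes for ribosome production, nucleotide synthesis, protein folding and mitochondria. In neuroblastoma, a tumour of the sympathetic nervous system of children, amplification of MYCN marks aggressive disease, and MYC-family proteins are also known to repress genes of differentiation, adhesion and the extracellular matrix.

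Values are the deposited signal, a linear intensity per probe set, and a change is the difference between mean log2 signals, with its standard error (SE). Of 19775 genes with a probe set, the 11865 with a mean signal of at least 12.8 over all arrays were tested. A gene is called higher or lower where limma gave an adjusted p under 0.05 (Benjamini-Hochberg, two-sided). Where a member of a gene list is named outside the rule given with the methods, it was chosen after its values were seen.

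The transgene was on at time 192. MYCN read 69.4, 79.2 and 103 at time 0 and 3273, 3065 and 3242 at time 192, in replicates 1, 2 and 3. Its change was 5.27 (SE 0.17, limma adjusted p = 7.19e-14), while the mock line read 2.3 and 2.7, which is background. Without _s_at and _x_at probe sets MYCN was read by another probe set, which gave -0.60 (limma adjusted p = 0.593). MYC, which SK-N-AS cells express from their own gene, read 308, 131 and 223 at time 0 and 135, 38.3 and 31.4 at time 192, so the groups overlapped. Its change of -1.93 (SE 0.48, limma adjusted p = 0.00566) ended as a call when all arrays of replicate number 2 were left out (-2.01, adjusted p = 0.0553), or all of number 3 (-1.48, adjusted p = 0.0635). MYC in the mock line read 256 at time 0 and 298 at time 192. MAX, the partner of both proteins, rose by 0.37 (SE 0.07, limma adjusted p = 0.000764), from 886 to 969 at time 0 to between 1152 and 1255. The change of MAX was no longer called when the probe sets of a gene were averaged (0.20), when _s_at and _x_at probe sets, which can match several transcripts, were dropped (0.04) or when array medians were made equal (0.39). Of 11 tested genes of the MYC network, MYCN included, 4 rose and 3 fell (median 0.087).

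At time 192, 3056 of the 11865 genes were called, 1380 higher (11.6% of genes tested) and 1676 lower (14.1%) than at time 0, and 4335 had an unadjusted p under 0.05. The decreases were larger than the increases: 190 of the genes called higher and 556 of those called lower had changed at least 2-fold, and 5 and 38 at least 8-fold. The median change was 0.53 among genes called higher, -0.75 among genes called lower and -0.028 over all genes tested. Among the genes called higher, the 3 arrays of time 192 all lay above the 3 of time 0 in 1299. Among those called lower they all lay below in 1573. Over all genes tested, the arrays were separated in this way in 16.5% (higher) and 19.6% (lower). In 116 of the genes called lower, the mean signal at time 192 was under 12.8, and for these the fold is given as a bound against that signal. The count of genes called fell to 1327 without the arrays of replicate number 2 and to 1543 without those of number 1.

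In the mock line, 475 genes (4%) were at least 2-fold higher and 253 (2.13%) at least 2-fold lower at time 192 than at time 0, without replicates and so without a test. The median mock change was -0.14 for the genes called higher in the MYCN line and 0.14 for those called lower. Of the genes called higher in the MYCN line, 36% were also higher in the mock line, and of those called lower 36.7% were also lower, where 52.7% of all genes tested were higher in the mock line. The change itself differed between the lines in 1599 genes (limma, adjusted p under 0.05), with the MYCN line above the mock line in 813 (6.85%) and below it in 786 (6.62%). With the replicate numbers as a block, 2924 genes differed, 1427 above and 1497 below. Without the arrays of replicate number 2, 418 differed. The lone mock arrays are assumed in this test to vary like those of the MYCN line. Among the genes called at time 192 against time 0, 578 of the 1380 higher and 594 of the 1676 lower also differed from the mock line in the same direction.

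Values of both lines limit this comparison. At time 0, 123 genes already stood at least 8-fold apart between the lines, 63 of them higher in the mock line: PHOX2A, a transcription factor of sympathetic neurons, read 768 in the mock line and 1.2 to 10.5 in the MYCN line. The mock array of time 192 also stood apart. Its median signal was 20.2, the highest of the 28 arrays (12.9 to 20.2), and its ratio of 3' to 5' actin signal, a measure of RNA quality, was 1.55, against 1.33 to 1.44 in the other mock arrays and 1.10 to 1.31 in the MYCN line. The part of RNA quality in the difference between the lines was not tested. Mock medians of the gene lists below rest on this array unless time 96 is named. At time 96 against time 0 the mock median was 0.24 for complement (0.92 at time 192) and -0.05 for nuclear transport (-0.25). It was -0.21 for ribosome biogenesis (-0.39) and 0.04 for cholesterol synthesis (0.02). Signals of the spiked hybridisation control bioD set the arrays apart in 2 sets, with 1544 to 1941 for MYCN-line arrays numbered 1 and 2, and 2322 to 2770 for those numbered 3 and for all mock arrays.

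TKTL1, a transketolase-like gene, GPAT3, an acyltransferase of glycerolipid synthesis, and HMOX1, the haem oxygenase that degrades haem, were among the largest increases besides MYCN itself. TKTL1 went from between 11.6 and 16.1 to between 125 and 245, and GPAT3 from between 9.4 and 10.9 to between 86 and 140, at least 8.72-fold higher. The difference from the mock line was called for GPAT3 (limma adjusted p = 0.016) and not for TKTL1 (adjusted p = 0.138) or HMOX1 (0.0562). For GPAT3 it was no longer called without the arrays of replicate number 1 (adjusted p = 0.0505) or 2 (0.126). SPHK1, the kinase that makes sphingosine-1-phosphate, read 43.6, 32.6 and 39.5 at time 0 and 432, 232 and 218 at time 192. The groups were far apart, and the change was 2.87 (SE 0.35, limma adjusted p = 9.11e-06), while the mock line went from 65.4 to 30. SLC6A15, a transporter of neutral amino acids, read 58.8, 55.8 and 53.2 at time 0 and 324, 294 and 297 at time 192, with replicates closer together than the change by a wide margin (2.45, SE 0.17, limma adjusted p = 1.45e-08). It also read higher in the mock line at time 192, 151 against 93.8, and the changes still differed between the lines by 1.76 (limma adjusted p = 0.00269).

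BHLHE41, a transcriptional repressor of the circadian clock, read 40.7, 18.5 and 26.7 at time 0 and 183, 152 and 134 at time 192. Its change was 2.51 (SE 0.24, limma adjusted p = 5.18e-07), against a drop from 62.6 to 39.1 in the mock line. CABLES1, a protein that links cyclin-dependent kinases to tyrosine kinases, read 28.7, 35.7 and 42.1 and then 240, 151 and 195. The mock line stayed near its time 0 value, at 22 and 26.7. ABCA17P, a transcribed pseudogene of the ABC transporters, rose by 2.87 from between 13.9 and 24.7 to between 126 and 166, with 23.7 and 19.6 in the mock line. CCN3, a secreted matricellular protein, was at least 4.62-fold higher, from between 7.2 and 12.5, under the signal of 12.8, to between 32.9 and 86.7. DDN, which encodes dendrin, a protein of dendrites and podocytes, was at least 4.09-fold higher, from between 5.2 and 24.3 to between 54 and 84.3, and was no longer called without the arrays of replicate number 2 (2.59, adjusted p = 0.0588).

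DLX2, a homeobox transcription factor, read 34.8, 27.9 and 33.6 at time 0, between 38.1 and 57.4 at time 96, and 314, 123 and 134 at time 192. All arrays of time 192 lay above those of time 96, but that step was not called over all genes (SE 0.34, limma adjusted p = 0.102). The replicate 1 array was the highest, and without it the change was 2.01 (limma adjusted p = 0.000241) in place of 2.44. In the mock line DLX2 read 24.5 and then 2.2, so the difference between the lines of 5.91 (limma adjusted p = 5.32e-05) holds a mock array at background. With values under 12.8 raised to it, the difference was 3.37 (adjusted p = 0.0032).

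**Figure D1:**
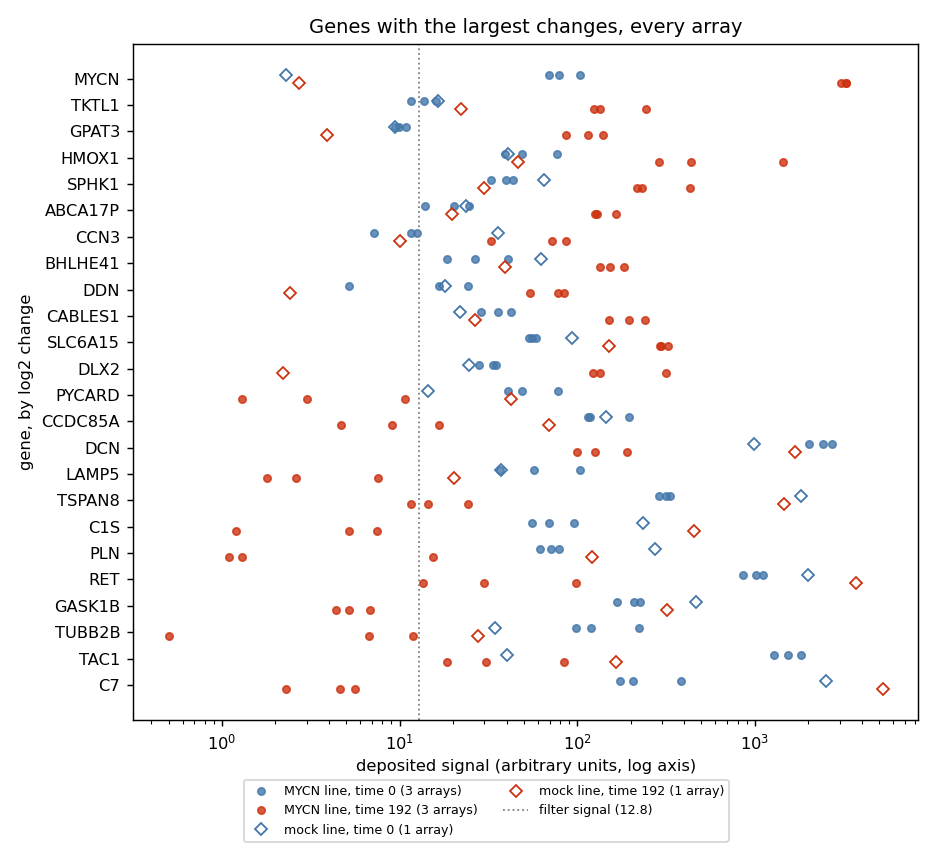
Signal (log scale) of the genes that increased most (12) and decreased most (12) at time 192 against time 0. Each point is 1 array of the MYCN line at time 0 or 192, diamonds are the single mock arrays, and the line marks the signal of 12.8; in every gene shown the 3 arrays of time 192 lie beyond the 3 of time 0, as the choice of genes requires, and the lower values of many decreases lie under the line.

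Among the largest decreases were a neuropeptide precursor, complement components, a receptor and a proteoglycan. TAC1, which encodes the precursor of the neuropeptide substance P, read 1539, 1275 and 1811 at time 0 and 83.9, 30.7 and 18.4 at time 192, a change of -5.40 (SE 0.68, limma adjusted p = 1.4e-05). In the mock line TAC1 was low at both times and read higher at the second, 40.3 and then 165. C7, a terminal complement component, read 175, 206 and 383 and then 4.6, 2.3 and 5.6, at least 18.7-fold lower, where the mock line held 2525 and 5244. The difference in the change of C7 between the lines (-7.00, limma adjusted p = 0.0298) was no longer called without the replicate 3 array of time 0 (-6.66, adjusted p = 0.0515) or without the replicate 2 array of time 192 (-6.62, adjusted p = 0.0522), nor without all arrays of replicate number 1 (adjusted p = 0.0915) or 2 (0.112).

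GASK1B, a kinase-like protein of the Golgi, had tight replicates: 209, 226 and 167 at time 0 and 6.8, 4.4 and 5.2 at time 192. It was at least 15.5-fold lower (limma adjusted p = 9.1e-10) and read 468 and 322 in the mock line. RET, the receptor tyrosine kinase for ligands of the GDNF family, read 853, 1011 and 1116 and then 13.6, 29.8 and 98.1. The arrays of time 192 differed widely among themselves, yet all lay far under those of time 0, and the mock line read 1991 and 3730. Its difference from the mock line (-5.76, limma adjusted p = 0.0178) was no longer called without the arrays of replicate number 1 (-5.20, adjusted p = 0.0639) or 2 (-5.65, adjusted p = 0.126). DCN, which encodes the collagen-binding proteoglycan decorin, fell by 4.14 (SE 0.39, limma adjusted p = 5.79e-07), from 2010, 2699 and 2419 to 125, 191 and 99.7. Its mock signal was 989 and then 1679.

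TSPAN8, a tetraspanin of the cell surface, fell by 4.29 (SE 0.35, limma adjusted p = 9.67e-08), from between 289 and 331 to between 11.6 and 24.2, beside 1807 and 1467 in the mock line. C1S, a protease of the first complement component, was at least 5.6-fold lower, PYCARD, the adaptor of inflammasomes, at least 4.19-fold lower, and PLN, the calcium pump inhibitor phospholamban, at least 5.17-fold lower. TUBB2B, a neuronal beta-tubulin, was at least 10.8-fold lower, CCDC85A at least 9.93-fold lower and LAMP5 at least 4.68-fold lower. The mock line read higher at time 192 than at time 0 for C1S (452 and 234) and PYCARD (42.1 and 14.5), and lower for PLN (120 and 275) and LAMP5 (20.3 and 37). For TUBB2B, PLN, CCDC85A and LAMP5 the difference between the lines was not called (limma adjusted p = 0.0875, 0.094, 0.223 and 0.247). The decrease of LAMP5 was itself not called without the arrays of replicate number 2 (adjusted p = 0.106).

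**Figure D2:**
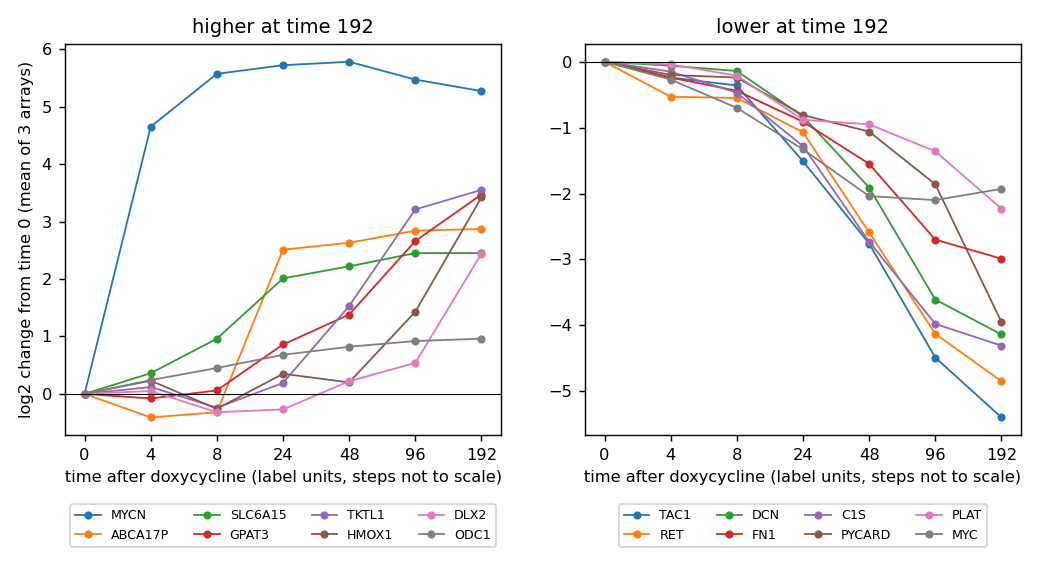
Mean log2 change from time 0 in the MYCN line (3 arrays a time) of genes higher (left) and lower (right) at time 192, over the 7 time labels, spaced evenly and not to scale. MYCN is up by 4.65 at time 4 and by 5.27 at time 192, DLX2 is at 0.54 at time 96 and 2.44 at time 192, a step that was not called, and PLAT falls further over the same step.

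Time 192 lay close to time 96. Of 11865 genes, 0 were called higher (0%) and 1 lower (0.00843%) at time 192 than at time 96 in limma, with 738 at an unadjusted p under 0.05, and no gene was called with a change of 2-fold. The median 95% half-width of this change over genes was 0.35 on the log2 scale. The gene was PLAT, tissue plasminogen activator, which read 477, 618 and 528 at time 0. It read 219, 202 and 207 at time 96, and then 110, 132 and 105. Its further decrease of 0.86 (change -0.86, SE 0.12, limma adjusted p = 0.0125) was no longer called without the replicate 1 array of time 96 (-0.83, adjusted p = 0.152) or its replicate 2 array (-0.89, adjusted p = 0.0693). Nor was it called when only the groups compared were fitted (limma adjusted p = 0.84). Without all arrays of replicate number 1, 2 or 3 the adjusted p was 0.767, 0.112 and 0.135. The mock line read 1315, 1183 and 1024 for PLAT at times 0, 96 and 192. The genes called higher at time 192 had a median change of 0.46 at time 96, and those called lower one of -0.64, both against the same time 0 arrays.

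**Figure D3:**
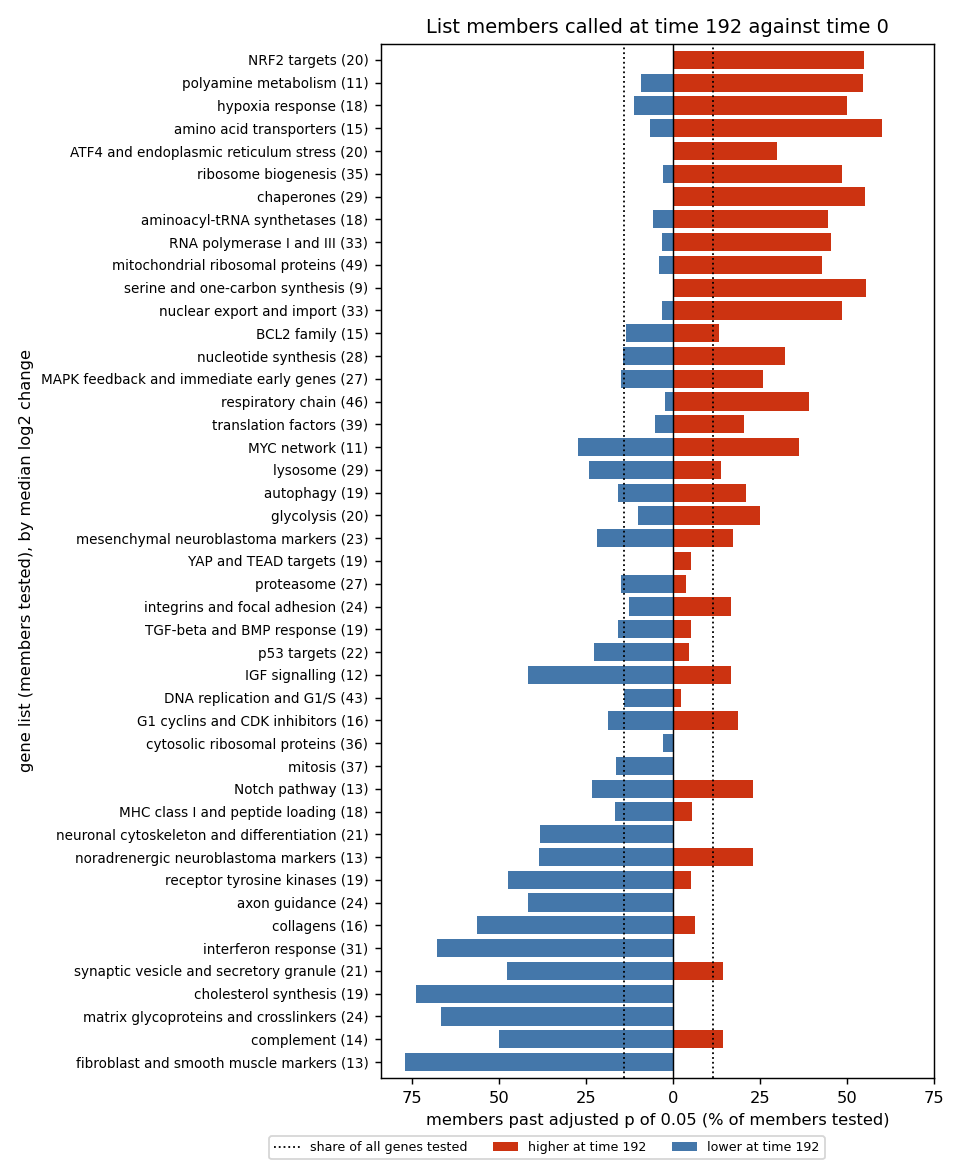
Percent of each gene list's tested members called higher (right) and lower (left) at time 192 against time 0 in the MYCN line, for lists with at least 9 tested members. Dotted lines mark the shares over all genes tested, 11.6% higher and 14.1% lower; lists of ribosome production and chaperones extend to the right, and cholesterol synthesis, interferon response, matrix and fibroblast lists to the left.

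Counts of list members below stand beside shares over all genes tested of 11.6% called higher and 14.1% called lower. Between the lines these shares were 6.85% above and 6.62% below the mock line. Some calls of genes named here ended under another setting. With averaged probe sets these were also DDX10 (0.68, limma adjusted p = 0.377), MTAP (0.51, adjusted p = 0.0709), RPS9, PSMB4, GINS2, CCNE1, GCLC, TAP2, BMPR2, DLL3, EYA1, TBX2 and CNP, and without _s_at and _x_at probe sets JUN (0.75, adjusted p = 0.179), MRPL4, GINS2 and CNP. With equal array medians they were RPS9, MRPL17, AIMP1, SMS, PSMB4, PSMD2, PSMD4, IPO5, NUP98, GINS2, NDC80, PMAIP1, PSME1, HLA-C, MAP1LC3B, CNP and, between times 192 and 96, PLAT. Without the arrays of replicate number 1 or 2 they were CCND1, MAP1LC3B, MAP1LC3A, CAV1, CDKN1C, PMAIP1, AIMP1, PSMB4, PSMD2, PSMD4, PSME1, HLA-C, GINS2, BMPR2, TGFBR3, DLL3, EYA1, TBX2, CNP, SOX9, RPS9, PTPRC and, between times 192 and 96, PLAT. PTPRC also ended with values under 12.8 raised to it (-0.64, adjusted p = 0.224).

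Genes for making ribosomes and for the RNA polymerases that transcribe ribosomal and transfer RNA were higher. Of 35 tested factors of ribosome biogenesis, which process and assemble ribosomal RNA in the nucleolus, 17 rose and 1 fell, with a median change of 0.32 against -0.028 over all genes. In the mock line their median was -0.39, and 18 of the 35 differed between the lines with the MYCN line above and 0 below. RRP9, a component of the U3 snoRNP, read 73.9, 76 and 129 at time 0 and 265, 272 and 216 at time 192 (change 1.48). DDX10, a nucleolar helicase, read 213, 186 and 207 and then 385, 373 and 433, while the mock line read 186 and 169. WDR12, a part of the PeBoW complex of the large subunit, rose by 0.53. The fall was in IMP3 (-0.33).

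Of 33 tested subunits and factors of RNA polymerases I and III, 15 rose and 1 fell, with a median of 0.26 (mock -0.044), and 10 were above and 1 below the mock line. POLR3G, the RNA polymerase III subunit found in stem cells and tumours, read 91.7, 77.3 and 67.4 at time 0 and 392, 345 and 294 at time 192 (2.13, SE 0.18, limma adjusted p = 1.25e-07). POLR3GL, the form of that subunit in most differentiated cells, fell by 0.62. POLR1G, a subunit of RNA polymerase I, read 183, 171 and 242 and then 610, 478 and 658, whereas the mock line read 211 and 142. GTF3A, the factor TFIIIA for 5S ribosomal RNA genes, had very close replicates at 883, 770 and 798 and then 1604, 1706 and 1534 (0.98, SE 0.07, limma adjusted p = 1.82e-08).

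Genes for structural proteins of the mitochondrial ribosome were called higher more often than lower. Of 49 tested mitochondrial ribosomal proteins 21 rose and 2 fell, with a median of 0.25 (mock -0.19) and 16 above the mock line. Leaving out the replicate 1 array of time 192 lowered the 23 calls to 14. They were 8 without all arrays of replicate number 2 and 5 with equal array medians. MRPS30 rose by 0.72, MRPL4 by 0.43, and MRPL17 fell by 0.46. Of 36 tested cytosolic ribosomal proteins 0 rose and 1 fell (limma), with a median of -0.09 (mock 0.31). The 1 was RPS9, at -0.21, which was not called without the replicate 3 array of time 0 or of time 192 (adjusted p = 0.0737 and 0.0675), and 3 members were called with the replicate numbers as a block. In the cytosolic list 5 members lay below the mock line and 0 above. Probe sets of ribosomal proteins can also detect their many processed pseudogenes, so single members are uncertain.

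Translation factors and chaperones were mostly higher where called. Of 39 tested translation factors 8 rose and 2 fell (median 0.093), and the 10 calls fell to 3 without the replicate 2 array of time 0 and to 4 without the replicate 1 array of time 192. EIF3J, a subunit of the factor that prepares the small ribosomal subunit, rose by 0.61 from between 1061 and 1178 to between 1646 and 1704. Of 18 tested aminoacyl-tRNA synthetases and their scaffold proteins, which load amino acids onto tRNA, 8 rose and 1 fell (median 0.28, mock -0.14), with FARSB at 0.46, AIMP1 at 0.41 and IARS1 at 0.36. FARSB and AIMP1 were not called with averaged probe sets (0.22 and 0.26, limma adjusted p = 0.408 and 0.126) or without _s_at and _x_at probe sets (0.19 and 0.23, adjusted p = 0.669 and 0.222). Of 29 tested chaperones 16 rose and 0 fell, the median was 0.29 (mock -0.12), and 12 were above the mock line. FKBP4, a cochaperone of HSP90, read 515, 552 and 454 and then 882, 924 and 928. HSPA9, the mitochondrial HSP70, rose by 0.60 and DNAJA3, its J-domain partner, by 0.46.

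Of 33 tested nucleoporins and nuclear transport receptors 16 rose and 1 fell, with a median of 0.21 (mock -0.25). The 17 calls became 10 when array 3 of time 0 was left out, 7 when array 1 of time 192 was, and 9 when its array 2 was. XPOT, the exportin of tRNA, rose by 0.49, IPO5, an importin, by 0.42 and NUP98 by 0.45. The decrease was in NUP210, a membrane nucleoporin (-1.08). Of 27 tested proteasome subunits 1 rose and 4 fell, all 5 by 0.35 or less (PSMD2 0.35, PSMB4 -0.27, PSMD4 -0.20), with a median of 0.029. The proteasome count was 3 without the replicate 3 array of time 192 and 8 with the replicate numbers as a block, and PSMD4 was not called without the replicate 1 array of time 192 (adjusted p = 0.0504) and was at 0.04 with averaged probe sets.

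Genes that serve the supply of building blocks were called higher more often than lower in several lists. Of 11 tested genes of polyamine metabolism 6 rose and 1 fell (median 0.44, mock -0.14). ODC1, the rate-limiting enzyme of polyamine synthesis, read 1480, 1257 and 1301 at time 0 and 2661, 2503 and 2659 at time 192 (0.96, SE 0.08, limma adjusted p = 1.25e-07). In the mock line ODC1 read 1006 at time 0, 850 at time 96 and 388 at time 192. The difference between the lines was 2.33 (limma adjusted p = 4.71e-08), and it rests in large part on the lone mock array of time 192. Both arms of the pathway were among the increases, since SRM (0.46) and SMS (0.44), which make spermidine and spermine, and SAT1 (0.83) and SMOX (0.82), which break them down, rose alike. MTAP, which salvages the by-product of polyamine synthesis, rose by 1.04, and AZIN1, the antizyme inhibitor, fell by 0.40.

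Of 15 tested amino acid transporters 9 rose and 1 fell (median 0.36, mock -0.20). SLC7A5, the LAT1 transporter of large neutral amino acids, read 121, 60.8 and 81.7 and then 457, 402 and 317, against 79.9 and 44.1 in the mock line. SLC7A2, a transporter of cationic amino acids, rose by 1.95 with replicates between 56.7 and 78.6 and then between 250 and 291. SLC7A11, the cystine transporter, rose by 2.21, and by 1.57 without the replicate 1 array of time 192, where it read 684 against 253 and 130. SLC3A2, the heavy chain that pairs with SLC7A5 and SLC7A11, rose by 1.01, but was not called without that array (0.56, limma adjusted p = 0.0708).

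Of 28 tested genes of nucleotide synthesis 9 rose and 4 fell (median 0.18, mock -0.30). PPAT, the first enzyme committed to purine synthesis, rose by 0.73 and DHODH, the mitochondrial enzyme of pyrimidine synthesis, by 0.75, while the nucleoside diphosphate kinase NME4 fell by 0.90. Of 9 tested genes of serine and one-carbon synthesis 5 rose and 0 fell (median 0.24), or 3 without the replicate 2 array of either time. PSAT1 rose by 0.83 and MTHFD2 by 0.64, from between 1313 and 1658 to between 2125 and 2356. Of 46 tested genes of the respiratory chain 18 rose and 1 fell (median 0.14, mock -0.02), with small changes such as 0.47 for UQCRC1 and 0.39 for COX5A, and 0.67 for ATP5MC1, a subunit of ATP synthase. COX5A was not called with averaged probe sets (0.25, limma adjusted p = 0.0863) or without _s_at and _x_at probe sets (0.11, adjusted p = 0.776), nor PPAT in the latter (-0.0012, adjusted p = 0.998). Of 20 tested glycolysis genes 5 rose and 2 fell (median 0.078). HK2, a hexokinase, rose by 1.13 and GPI by 0.50, and the neuronal enolase ENO2 fell by 1.17.

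Promoters of the genes called higher held the E-box CACGTG more often than those of other genes, as a description. The motif reads the same on both strands and was searched in the 250 bases before the start of each gene in RefSeq (GRCh38.p14). It was in 9.2% of the 9731 tested genes with a promoter in the table and in 6.49% of all 27305 promoters. Its share was 15.4% of the 1148 matched genes called higher, 19.9% of the 141 called at least 2-fold higher, 5.56% of the 1368 called lower and 4.23% of the 426 called at least 2-fold lower. The median GC content of these sets lay between 64.4% and 67.2%. Within the lists, the share was 19.4% for ribosome biogenesis, 21.4% for RNA polymerases I and III, 4.65% for mitochondrial ribosomal proteins and 0% of 13 collagens and of 19 matrix glycoproteins. Of the lists with at least 9 members tested, the highest share was in the lysosome genes, at 40% of 20, where 4 members rose and 7 fell. A match of these letters is not a binding site, and no binding was measured.

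Among the genes of the naming rule with a promoter in the table, 13 of 119 held the motif. The stretches below show it, in capitals, for genes that rose in different lists. They are given on the strand of the gene, 5′ to 3′:
POLR1G: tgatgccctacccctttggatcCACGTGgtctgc
HSPA9: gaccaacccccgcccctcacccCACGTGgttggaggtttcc
SLC7A5: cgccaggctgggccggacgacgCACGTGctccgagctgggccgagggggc
PPAT: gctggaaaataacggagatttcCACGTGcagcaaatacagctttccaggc
BHLHE41: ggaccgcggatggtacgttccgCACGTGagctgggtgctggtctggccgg
DLX2: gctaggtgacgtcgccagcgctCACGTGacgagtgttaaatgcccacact
They lie at chr19:45406610-45406643 (plus strand, POLR1G), chr5:138575402-138575442 (minus, HSPA9), chr16:87869610-87869659 (minus, SLC7A5), chr4:56435770-56435819 (minus, PPAT), chr12:26125058-26125107 (minus, BHLHE41) and chr2:172102918-172102967 (minus, DLX2). The motif starts 12 bases before the gene in POLR1G, 19 in HSPA9, 130 in SLC7A5, 182 in PPAT, 48 in BHLHE41 and 45 in DLX2. These genes ranged from a change of 0.60 (HSPA9) to one of 2.51 (BHLHE41), so the letters alone did not go with a fixed size of change.

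The same letters were also found before genes that fell, which are shown because they go the other way:
TAC1: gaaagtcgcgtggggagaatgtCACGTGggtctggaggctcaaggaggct
CCNG2: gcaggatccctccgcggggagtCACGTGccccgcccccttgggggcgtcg
IRF9: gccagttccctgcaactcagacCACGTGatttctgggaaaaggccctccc
These lie on the plus strand at chr7:97732003-97732052 (TAC1), chr4:77157155-77157204 (CCNG2) and chr14:24161172-24161221 (IRF9), with the motif 61, 30 and 71 bases before the start. Their changes were -5.40, -2.05 and -1.10.

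Cholesterol synthesis was the metabolic list that fell. This pathway makes sterols from acetyl-CoA, and its genes are controlled together by SREBP2. Of 19 tested members 14 fell and 0 rose, with a median of -0.75 (mock 0.019). The medians of the 3 replicate numbers were -0.84, -0.85 and -0.66. STARD4, a carrier of sterols between membranes, read 674, 632 and 563 at time 0 and 159, 215 and 230 at time 192 (-1.64, SE 0.16, limma adjusted p = 1.06e-06), where the mock line read 354 and 438. IDI1, which makes the isoprenoid building block, fell by 1.12 with 1076, 1116 and 1031 against 448, 506 and 533. ACAT2, the first step, fell by 1.20, HMGCS1 by 1.19, and INSIG1, a sterol-regulated brake of the pathway, by 1.58. TM7SF2, a sterol reductase, was at least 5.08-fold lower. Without _s_at and _x_at probe sets IDI1 was at -0.12 and not called (limma adjusted p = 0.821). In 5 members the difference from the mock line was itself called, all below it. In IDI1 it missed the threshold (-0.80, limma adjusted p = 0.0566).

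Stress genes formed a mixed group in which 1 array stood out. Of 20 tested NRF2 targets, which detoxify and make glutathione, 11 rose and 0 fell (median 0.51, mock -0.068). NQO1, a quinone reductase, read 2089, 1920 and 2009 and then 2903, 2581 and 2779, against 1783 and 1443 in the mock line. GCLC, the catalytic subunit of glutathione synthesis, rose by 0.68. HMOX1 read 77.4, 48.9 and 39.4 at time 0, between 70.8 and 222 at time 96, and 1436, 437 and 288 at time 192, with 40.9 and 46.1 in the mock line. The difference between the lines in its change missed the threshold (3.24, limma adjusted p = 0.0562). Without the replicate 1 array of time 192 the change of HMOX1 was 2.74 (limma adjusted p = 0.00114) in place of 3.42.

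That array also held the highest metallothioneins, the small metal-binding proteins that rise with zinc and oxidative stress. They were examined after their values were seen, and their near-identical copies make single members uncertain. All 7 tested were called higher. MT1G read 166, 134 and 216 at time 0 and 2011, 285 and 226 at time 192, and MT2A read 1525, 1476 and 1554 and then 4747, 2160 and 2183. Without the replicate 1 array 6 of the 7 were still called higher, by 0.52 (MT2A) to 0.93 (MT1F), and MT1E was not (0.46, limma adjusted p = 0.0576). The mock line read lower at time 192 in all 7, for example from 1672 to 485 in MT2A and from 521 to 49.7 in MT1HL1, a metallothionein-like gene. Of 8917 genes with a mean signal of at least 50 at time 192, 124 were at least 2-fold away from the mean of the other arrays in replicate 1, 35 in replicate 2 and 140 in replicate 3, so replicate 1 was not the array with the most outlying genes.

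**Figure D4:**
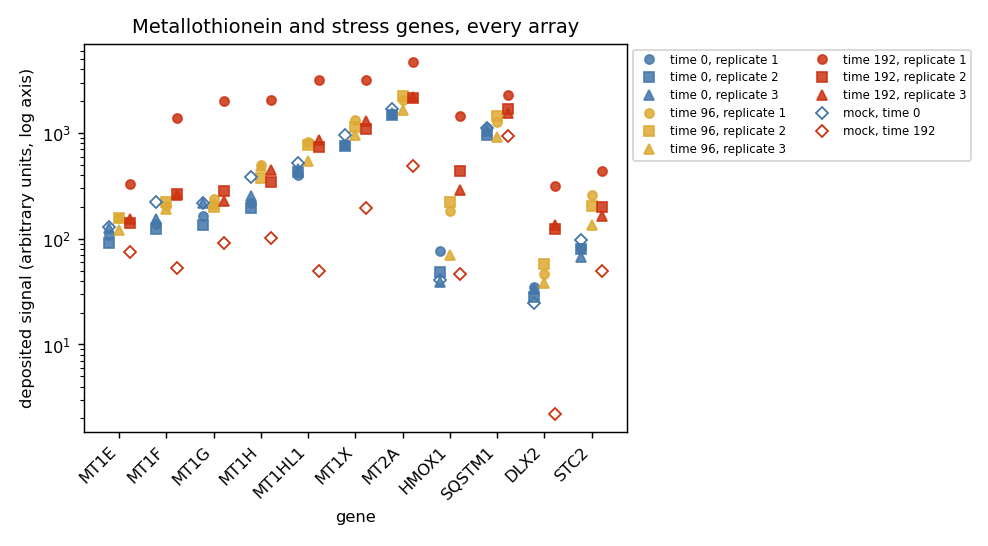
Signal (log scale) of the 7 tested metallothioneins and 4 other stress or late genes, as single arrays of the MYCN line at times 0, 96 and 192 and the mock arrays of times 0 and 192. The replicate 1 array of time 192 lies above the other 2 in each gene, and the mock metallothioneins are lower at time 192 than at time 0.

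Of 20 tested genes of ATF4 and endoplasmic reticulum stress 6 rose and 0 fell (median 0.36, mock 0.21). The medians by replicate number were 0.69, 0.05 and 0.17, so the list was highest in replicate 1 here too. STC2, a secreted glycoprotein, rose by 1.67, or 1.25 without the replicate 1 array of time 192, and TRIB3, a pseudokinase, from between 239 and 284 to between 454 and 652. Of 18 tested genes of the hypoxia response 9 rose and 2 fell (median 0.36, mock -0.062). MXI1, an antagonist of MYC that hypoxia also induces, read 346, 401 and 261 and then 709, 856 and 993, and ERO1A, an oxidase of the endoplasmic reticulum, rose by 0.62. Without _s_at and _x_at probe sets ERO1A was at 0.09 and not called (limma adjusted p = 0.588). BNIP3L, a mitophagy receptor in the same list, fell from between 512 and 621 to between 324 and 367, and ADM, the peptide adrenomedullin, fell by 1.02.

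Interferon response genes were lower. Of 31 tested members, which defend against viruses, 21 fell and 0 rose, with a median of -0.64 (mock 0.23), and 12 were below the mock line with 0 above. IFI44 read 312, 368 and 354 at time 0 and 132, 130 and 119 at time 192 (-1.44, SE 0.21, limma adjusted p = 4.63e-05), against 202 and 225 in the mock line. IFI35 read 436, 514 and 470 and then 222, 281 and 263. IRF9, the DNA-binding part of the complex that turns on these genes, fell by 1.10, IRF7 by 0.93 and the antiviral membrane protein IFITM1 by 1.49. No array of time 192 reached the time 0 values of IFI44, IFI35 or IRF9.

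MHC class I and peptide loading, which interferon also controls, showed fewer calls. Of 18 tested members 1 rose and 3 fell (median -0.18, mock 0.25), and the median changed sign under 1 of 20 alternatives. TAP2, a peptide transporter, rose by 0.65, and PSME1, a proteasome activator, fell by 0.35. HLA-C fell by 0.29, from between 1648 and 1827 to between 1358 and 1504, whereas the mock line read 1201 and then 2524, and the difference between the lines was -1.36 (limma adjusted p = 3.02e-05). The mock line also stood out in BST2, the interferon-induced membrane protein tetherin, at 9.5 and 80.7, while the MYCN line read 767 to 1043 and then 529 to 858, which was not called.

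Lists of the extracellular matrix fell. Of 24 tested matrix glycoproteins and crosslinkers 16 fell and 0 rose, with a median of -0.80 (mock 0.19), and 9 were below the mock line and 1 above. FN1, fibronectin, read 2139, 2006 and 2343 at time 0 and 264, 246 and 312 at time 192 (-2.99, SE 0.27, limma adjusted p = 4.37e-07). The mock line read 240 and 373, where FN1 was low from the start. HAS2, which makes hyaluronan, fell from 235, 205 and 186 to 41.3, 25.7 and 24.7, beside 324 and 385 in the mock line. TNC (-1.60), POSTN (-1.69) and MFAP2 (-2.21), proteins of the matrix and its microfibrils, fell as well.

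Of 16 tested collagens 9 fell and 1 rose (median -0.57, mock 0.54). The mock median was -0.06 at time 96 against time 0. The 10 calls became 6 without the replicate 3 array of time 0 or the replicate 2 array of time 192. The medians by replicate number ran from -0.18 to -0.86. COL3A1, a fibrillar collagen, read 6047, 5804 and 7133 and then 1907, 3057 and 3500, while the mock line read 7466 and 8944. The basement membrane collagens COL4A6 and COL4A5 fell by 1.24 and 0.93, though COL4A5 was not called with averaged probe sets (-0.45, limma adjusted p = 0.24) or without _s_at and _x_at probe sets (0.04, adjusted p = 0.973). COL13A1, a transmembrane collagen, was the exception and rose by 1.85.

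Of 13 tested markers of fibroblasts and smooth muscle 10 fell and 0 rose (median -1.21, mock 0.32), a list that shares COL1A1, COL3A1, LUM and DCN with those above. The summed signal of its members was 21900 to 26400 at time 0 and 9280 to 12300 at time 192 in the MYCN line, and 22700 and 23300 in the mock line. Of 16 members with a probe set 10 were at 50 or more in all 6 arrays of the MYCN line. Among the smooth muscle markers, CNN1 and MYH11 read 16.2 or less at both times, TAGLN 56 to 120 and then 11.8 to 165, and ACTA2 1102 to 1572 and then 170 to 717. The line is a tumour cell culture, and the part of any other cell type in these decreases was not tested. PDGFRA, a receptor of platelet-derived growth factor, read 390, 428 and 393 and then 108, 63.3 and 35.6, and PDGFRB fell by 1.72, from between 186 and 204 to between 52.8 and 64.6. FAP, a surface protease of fibroblasts, fell by 1.41, and ACTA2, smooth muscle actin, by 2.20.

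Of 14 tested complement genes 7 fell and 2 rose (median -1.03, mock 0.92), with 5 below the mock line and 1 above. Besides C7 and C1S, C1R, the other protease of the first component, fell from between 173 and 183 to between 28 and 63.5, where the mock line read 294 and 621. CD55, a membrane inhibitor of complement, rose by 1.56, from 282, 328 and 236 to 1008, 806 and 685. The mock CD55 signal was 162 and then 281, and its change did not differ between the lines beyond the threshold (limma adjusted p = 0.168).

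Receptors and their feedback genes changed in both directions. Of 19 tested receptor tyrosine kinases 9 fell and 1 rose (median -0.40, mock 0.26). The mock median was -0.21 at time 96 against time 0. RET, PDGFRA and PDGFRB were among the decreases, ERBB2 fell by 1.17, and MET, the receptor of hepatocyte growth factor, rose by 1.44. Of 27 tested MAPK feedback and immediate early genes 7 rose and 4 fell (median 0.16). DUSP5, a phosphatase of ERK, read 96, 87.3 and 72.4 and then 486, 358 and 307, and the AP-1 genes JUN (1.39) and FOSL1 (1.80) rose. SPRY2, another feedback inhibitor, fell from 1534, 1001 and 1439 to 388, 428 and 380, and DUSP6 fell by 0.97.

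Of 12 tested genes of IGF signalling 5 fell and 2 rose. All 5 decreases were in binding proteins, led by IGFBP5, which read 233, 264 and 323 and then 32.6, 29.9 and 10.6 (-3.64), with IGFBP2 (-0.99), IGFBP3 (-1.28), IGFBP6 (-0.81) and IGFBP7 (-0.47). STC2 (1.67) and the insulin receptor substrate IRS2 (1.30) rose, and the list median was -0.047. Of 19 tested genes of the TGF-beta and BMP response 3 fell and 1 rose (median -0.01), or 2 in all without the replicate 3 array of time 0 or the replicate 2 array of time 192. BMP2 fell by 1.96, from between 55.2 and 71.2 to between 12.3 and 19.1, and the receptor BMPR2 by 0.51. TGFBR3, a coreceptor at -0.78 with overlapping arrays, was not called without any single one of 4 arrays: replicate 1 or 3 of time 0 (adjusted p = 0.0695 and 0.185), and replicate 2 or 3 of time 192 (0.117 and 0.127).

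Of 13 tested genes of the Notch pathway 3 rose and 3 fell: the ligand DLL3 (0.98) and the target HES1 (0.93) rose, and the coactivator MAML2 (-1.46) fell. Of 24 tested integrin and focal adhesion genes 4 rose and 3 fell (median 0.002), where 11.6% and 14.1% of all genes tested did. Calls were 4 in all without the replicate 1 array of time 192. CAV1, the coat protein of caveolae, rose by 1.26 from between 397 and 588 to between 906 and 1394, and ITGB5 fell by 0.50. Of 19 tested YAP and TEAD targets 1 rose and 0 fell (median 0.06), a count that was 5 with the replicate numbers as a block. It was FJX1, at 0.84, which read 243 and then 106 in the mock line.

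Cell cycle genes were called lower at about the share of all genes (14.1%). Of 43 tested genes of DNA replication and G1/S 1 rose and 6 fell, with a median of -0.077 (mock -0.21). The 7 calls were 4 without the replicate 1 array of time 0, 3 without the replicate 1 array of time 192, and 13 with the replicate numbers as a block. LIG1, the ligase of Okazaki fragments, read 214, 248 and 239 and then 133, 154 and 150, and the kinase CDC7 fell by 0.73 and GINS2 by 0.41. Of 37 tested mitosis genes 6 fell and 0 rose (median -0.12, mock -0.13), or 3 without the replicate 1 array of time 192 and 13 with the block. KIF20A, a kinesin of cytokinesis, read 1053, 1046 and 1004 and then 544, 644 and 736, and NDC80, of the kinetochore, fell by 0.52.

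Among 16 tested G1 cyclins and CDK inhibitors 3 rose and 3 fell. CCND1, cyclin D1, read 260, 201 and 280 and then 922, 538 and 440, CCNE1, cyclin E1, rose by 0.67, and the inhibitor CDKN1C, p57, fell by 1.57. SK-N-AS is known to lack functional p53. Of 22 tested p53 targets 1 rose and 5 fell (median -0.03), or 13 calls with the replicate numbers as a block. CCNG2, an atypical cyclin, fell from between 99.9 and 193 to between 21.8 and 55.5, FAS, the death receptor, by 1.07 and DDB2, of DNA repair, from between 110 and 161 to between 56.5 and 73. Of 15 tested BCL2 family genes 2 rose and 2 fell (median 0.20), near the shares over all genes tested (11.6% and 14.1%). Calls were 2 in all without the replicate 1 array of time 192. PMAIP1, the death activator NOXA, rose by 0.66 but was not called without the replicate 3 array of time 0 (0.47, adjusted p = 0.0608) or the replicate 1 array of time 192 (0.54, adjusted p = 0.0517).

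Lysosome and autophagy genes were mixed as well. Of 29 tested lysosome genes 4 rose and 7 fell (median 0.085). CTSF, a cathepsin, read 50.7, 71.7 and 59.3 and then 159, 194 and 203, and NPC2, which hands cholesterol out of the lysosome, fell from 2441, 2316 and 2282 to 1390, 1340 and 1527. Of 19 tested autophagy genes 4 rose and 3 fell (median 0.084), where 11.6% and 14.1% of all genes tested did. Calls were 4 in all without the replicate 2 array of time 0, or without the replicate 1 or 2 array of time 192. Of the LC3 paralogs, MAP1LC3B rose by 0.63 and MAP1LC3A fell by 1.01.

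The label of the cells was compared with the markers of the 2 neuroblastoma cell states. Of 22 noradrenergic markers with a probe set, 8 were under 12.8 in all 6 arrays of the MYCN line and 8 at 50 or more in all of them. The enzymes of noradrenaline synthesis and PHOX2A were near background: TH, tyrosine hydroxylase, read 0.8 to 1.6 at time 0 and 0.4 to 0.6 at time 192, DBH 0.9 to 5.2 and 1.1 to 3.1, and PHOX2A 1.2 to 10.5 and 2.1 to 12.4. Transcription factors of the same list were mixed. TBX2 read 931.6 to 1396.5 at time 0 and 538.9 to 663.2 at time 192. ISL1 read 134.1 to 181.7 and then 102.3 to 128.8, and GATA3 269.5 to 350.9 and then 339 to 458.1. Other factors were near background at both times. HAND1 read 11 to 13.5 and then 9.2 to 15.1, TFAP2B 6.4 to 10.1 and 3.3 to 7.8, and INSM1 1 to 9.4 and 0.3 to 5.6. Of 27 mesenchymal markers, 21 were at 50 or more in all 6 arrays and 3 under 12.8, among them CDH11 (0.5 to 6). VIM (5645 to 6307 and 4891 to 5554) and YAP1 (803 to 816 and 611 to 782) were well expressed. The mock line differed here in markers of both lists, with PHOX2A at 768 and 1133 and CDH11 at 1397.8 and 1591.5. Of 10 Schwann cell and neural crest markers with a probe set 3 were under 12.8 in all 6 arrays, SOX10 and S100B among them, and 1, CNP, at 50 or more. Of 11 immune and endothelial markers 8 were under 12.8 and 0 at 50 or more in all 6, with PECAM1 the brightest at 45.2 to 103 over both times.

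Of 13 tested noradrenergic markers 3 rose and 5 fell (median -0.38, mock -0.098), and the 8 calls became 4 when array 1 or 3 of time 0 or array 1 of time 192 was left out, and 5 when array 3 of time 192 was. SOX11, a transcription factor of developing neurons, read 540, 684 and 571 and then 130, 174 and 219, while the mock line read 496 and 878. EYA1 fell by 0.85 and TBX2 by 0.89, and GATA2 rose by 0.84. The summed signal of the list was 2850 to 3410 at time 0 and 2110 to 2650 at time 192.

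Of 23 tested mesenchymal markers 4 rose and 5 fell, with a median of 0.07 (mock -0.03) that changed sign under 2 of 20 alternatives, and a summed signal of 16200 to 17300 and then 16100 to 16800. The members split. CD44, a hyaluronan receptor, rose by 1.37, from 974, 766 and 642 to 2058, 2014 and 1991, with 708 and 413 in the mock line. FOSL1 rose by 1.80 and TWIST2 by 0.58, while FN1 (-2.99), MAML2 (-1.46), TWIST1 (-0.87) and PRRX1 (-0.58) fell.

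Of 3 tested Schwann cell and neural crest markers SOX9 rose by 0.91, near the threshold (limma adjusted p = 0.0453), and CNP fell by 0.53. SOX9 was not called without the replicate 1, 2 or 3 array of time 0 or the replicate 2 or 3 array of time 192 (adjusted p = 0.059 to 0.186), nor CNP without the replicate 1 array of time 192 (adjusted p = 0.0563). Of 3 tested immune and endothelial markers PTPRC, which marks leukocytes, fell from between 10.3 and 34.9 to between 1 and 4.4, against 262 and 198 in the mock line.

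Of 21 tested genes of the neuronal cytoskeleton and differentiation 8 fell and 0 rose. Their median change of -0.24 stood beside one of -0.32 in the mock line, and 3 members were called below the mock line. PRPH, the intermediate filament peripherin of peripheral neurons, read 611, 1007 and 806 and then 132, 128 and 156, a change of -2.52 (SE 0.34, limma adjusted p = 2.44e-05), where the mock line read 1135 and 2212. STMN3, a regulator of microtubules, fell by 1.24, and CNTN1, an adhesion molecule of axons, fell from between 63.3 and 79.7 to between 8.5 and 16.7. Of 24 tested axon guidance genes 10 fell and 0 rose (median -0.48, mock 0.12). The receptor ROBO1 read 1135, 1168 and 1085 and then 443, 715 and 657, the ligand SEMA3A fell by 0.94, and the ephrin EFNB3 fell by 2.05.

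Of 21 tested genes of synaptic vesicles and secretory granules 10 fell and 3 rose (median -0.73, mock 0.003). The tested members include SYT4, near background in the MYCN line (8.7 to 14.8 and 1.7 to 10.5) and at 1065.5 and 1948.7 in the mock line. TAC1 was among the decreases, CHGA, the granule protein chromogranin A, was at least 4.84-fold lower with 6.9 to 7.8 at time 192, NPY fell by 1.97, and PAM, the enzyme that amidates neuropeptides, fell from between 4592 and 4765 to between 2502 and 3184. The peptides did not move together, since GAL, the neuropeptide galanin, rose from 91.9, 97.5 and 99.4 to 384, 254 and 271 (1.63, SE 0.14, limma adjusted p = 1.36e-07), above the mock line (69.7 and 92.1) by 1.23 in its change (limma adjusted p = 0.00756).

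**Figure D5:**
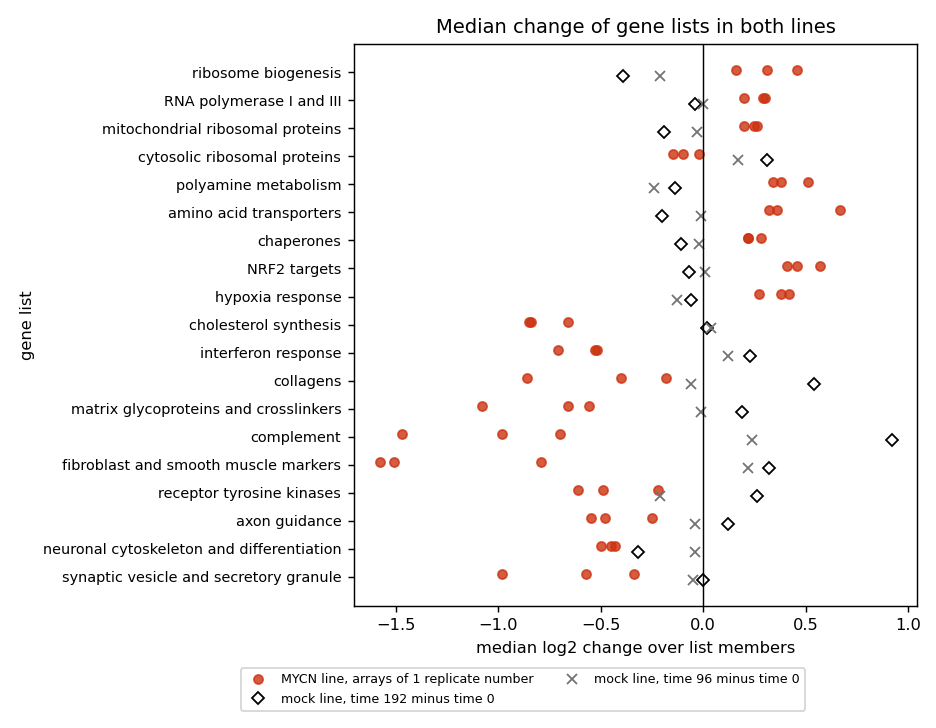
Median log2 change from time 0 to time 192 over the tested members of 19 lists, 1 point for each of the 3 replicate numbers of the MYCN line, beside the medians of the mock line at times 96 and 192 against its time 0. In cholesterol synthesis the MYCN line lies between -0.85 and -0.66 and the mock line at 0.02, and in ribosome biogenesis between 0.16 and 0.46 and at -0.39.

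Of the 8 genes named for their mock change, the MYCN line called 1, MT1HL1, which read higher there at time 192 and lower in the mock line. JDP2, a repressor of AP-1, read 2.5 and 64.6 in the mock line, at least 5.05-fold higher, and CARINH, a noncoding RNA, 9.6 and 94.9, at least 7.41-fold higher, whereas neither was called in the MYCN line (limma adjusted p = 0.815 and 0.964). PTPRO, a receptor phosphatase, read 249 at time 0, 817 at time 96 and 2860 at time 192 in the mock line, while the MYCN line read 1173 to 1972 at time 0 and 1673 to 2252 at time 192. The mock decreases named were MT1HL1, FBLN2 (54.5 and 5.7, at least 4.26-fold), EEF2KMT (128 and 14.7) and the mitochondrially encoded ND6 (4289 and 538). Conversely, PDE9A, a phosphodiesterase of cyclic GMP, fell by 1.72 in the MYCN line, from between 294 and 308 to between 80.5 and 113, while the mock line read 1.1 and 13.8, values near background that make its difference of -5.37 a poor measure of size.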

How the data were processed

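RNA of the 6 arrays compared, and of the other 22 in the same fits, was measured on single-colour Affymetrix arrays. For every array the deposited table gives a linear intensity per probe set. MAS5 and GCOS, the Affymetrix programs for summarising and scaling, are named per the submitters' processing notes, with versions and settings not given in the sources used here. Each array had a 2% trimmed mean of 100, and nothing more was normalized.

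Of 54675 probe sets 41091 named 1 gene by the platform annotation, 1801 several and 11783 none or a control. Before log2, 91 values of 0 or less were replaced by 0.1. A gene was read by its brightest probe set, and the 40th percentile of mean log2 signal (3.68) set the filter. Small signals scatter widely on the log scale.

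Models were fitted in limma 3.58.1 under R 4.3.3, with an intensity trend in eBayes. Times 192 and 0, and 192 and 96, were contrasts in 1 model of the MYCN line's 21 arrays. The difference between the lines came from all 28 arrays, 14 residual degrees of freedom in each fit. The number of arrays limits the precision. Deviations from the group means of same-numbered arrays of times 0 and 192 correlated at 0.149, 0.129 and 0.226. The best correlations with another number were -0.0302, 0.124 and 0.00529, so replicate 2 was hardly set apart. The main fits used group means only, without a replicate block, so their p-values are unpaired. The block was an alternative, with 4159 genes called at time 192 against time 0 and 2924 differing between the lines. On data simulated over 11865 genes, 67 genes drawn anew for each comparison were changed by 1 on the log2 scale. Of these, 82.1% (time 192 against 0), 26.9% (between lines) and 59.7% (192 against 96) were recovered. The first and last comparisons have the same design, so their shares differ by the genes and noise drawn. Noise was normal without a replicate effect, and mock arrays were given the spread of the MYCN line. Far fewer genes were changed than were called in the data.

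The genes to name were MYCN, MYC and MAX, the 12 largest increases and decreases with separated arrays and a signal of at least 50, the 3 smallest p-values called in each of 47 lists, the most extreme differences between the lines (5 each way), the calls against time 96 and the 4 largest mock changes each way. The comparison and the lists (1258 genes, 1026 tested) were chosen with earlier results of these data known. Promoter sequences are those of RefSeq, GRCh38.p14. Alternatives changed the probe set rule, scaling, filter, floor, pseudocount, arrays fitted, blocks and arrays left out.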

Additional observations from a re-analysis of the deposited data

Results flagged for a closer look

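The change from time 0 to time 192 differed between the MYCN line and the mock line in 1599 genes, by limma's test of the difference itself. For genes at 12.8 or above in the arrays of both lines, the difference in log2 change was 4.95 for MT1HL1, 3.99 for SPHK1, 3.19 for BHLHE41, 3.14 for ABCA17P, 2.17 for CABLES1 and 1.76 for SLC6A15 among the increases. It was -7.43 for TAC1, -5.76 for RET, -4.91 for DCN and -3.99 for TSPAN8 among the decreases, where TSPAN8 has values under 12.8 and is at -3.94 with these raised. The difference of RET was not called without replicate number 1 (adjusted p = 0.0639) or 2 (0.126). In MT1HL1 the MYCN line rose by 1.56, or by 0.89 without the replicate 1 array of time 192. The mock line changed by -3.39, from 521 to 49.7, so the larger part of the MT1HL1 difference is the mock decrease.

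In the other genes some values lay under the signal of 12.8, so the size is not measured on both sides, and the difference with such values raised to 12.8 is given after the first. It was 5.91 and 3.37 for DLX2, 5.37 and 2.52 for DDN, 5.04 and 5.27 for MYCN, 4.74 and 3.12 for GPAT3, and 4.38 and 3.69 for CCN3. It was -7.00 and -5.28 for C7, -5.49 and -3.61 for PYCARD, -5.37 and -1.83 for PDE9A, -5.26 and -3.44 for C1S, and -4.67 and -3.42 for GASK1B. The raised value was not called for DDN (limma adjusted p = 0.0676). Without replicate number 2, DDN (adjusted p = 0.0574), GPAT3 (0.126) and C7 (0.112) were not called, and without number 1 neither GPAT3 (0.0505) nor C7 (0.0915).

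In C7, RET, C1S, DCN, TAC1 and PYCARD the mock line read higher at time 192 than at time 0 while the MYCN line fell. In GASK1B and TSPAN8 both lines read lower at time 192, the mock line by less.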

How the results depend on the processing

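Leaving out arrays gave 1327 to 2972 genes called at time 192 against time 0 (588 to 1359 higher, 739 to 1613 lower), 418 to 2377 differing between the lines (242 to 1159 above, 176 to 1218 below the mock line) and 0 to 10 called against time 96. Averaging a gene's probe sets gave 904 higher, 1033 differing (524 above, 509 below) and 2 against time 96. Without _s_at and _x_at probe sets there were 880 higher, 1040 differing (520 above and 520 below) and 0 against time 96. Equal array medians gave 1886 called (733 higher), 601 differing (297 above, 304 below) and 0 against time 96; the share of higher calls was 38.9% in place of 45.2%. Fitting only the groups compared gave 851 higher, 641 differing (293 above, 348 below) and 0 against time 96. A pseudocount of 16 gave 2 against time 96. The replicate block gave 2924 differing (1427 above, 1497 below), 16 against time 96 and 4159 called at time 192 against time 0. It ended no call of a named gene. Deviations of same-numbered arrays of times 96 and 192 correlated at 0.24, 0.088 and 0.327. The best correlations with another number were 0.0451, 0.0766 and -0.105. The block by control signal gave 2742 differing (1351 above, 1391 below) and 11 against time 96. The set of arrays with the higher control signal has 1 MYCN array per time, so no test was possible within it, and the other set is the one left without replicate 3.

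Reversed values were PSMD4 at 0.04 and SMPD1 at 0.09 with averaged probe sets, and, without _s_at and _x_at probe sets, MYCN at -0.60 with a difference between the lines of -0.99, PPAT at -0.0012 and COL4A5 at 0.04. The signal of the MYCN probe set read in that setting is not given here. The other 2898 values of named genes kept their direction and side of the threshold, and 141 kept only the direction. Counts of list members called moved too. The main counts were 23 for mitochondrial ribosomal proteins, 18 for ribosome biogenesis, 21 for interferon response, 17 for nuclear transport and 10 for amino acid transporters. Without replicate number 2 they were 8, 9, 9, 4 and 3. With equal array medians they were 5, 13, 18, 4 and 5, and with the replicate block 29, 27, 23, 21 and 10. The cause of these moves was not tested. Signal near background, at or under 12.8, limits what folds of dim genes show.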
